A study of Mus musculus with 14 samples.

Results

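The 31 genes described here encode enzymes and regulators of cholesterol and fatty acid synthesis and were taken by gene name from a table of 35275 genes. They comprised 7 genes of the mevalonate branch (from acetyl-CoA to farnesyl diphosphate), 11 of the sterol branch (from squalene to cholesterol), 5 regulators and sterol transport genes, and 8 fatty acid genes. RNA sequencing of tumorspheres, cell clusters grown without attachment for 5 days in serum-free PromoCell XF medium, gave their levels in 14 samples of 5 lines. All lines came from KMF cells, an aggressive mouse ovarian carcinoma line (C57Bl6) obtained by passage of ID8 cells in mice. KMF cells were unedited (n = 3). FAK KO cells were the single clone KT13 (genotype FAK-/-, made with CRISPR/Cas9 against Ptk2, the gene for focal adhesion kinase, n = 3). FAK-WT cells were KT13 cells with lentiviral GFP-FAK (n = 3), and FAK-R454 cells were KT13 cells with lentiviral GFP-FAK-R454, a kinase-inactive form (n = 2). β-catenin ΔGSK cells were KT13 cells with a retroviral active β-catenin that lacks the sites phosphorylated by GSK3β (n = 3). The 3 re-expressing lines therefore carry the FAK-/- genotype, the transgenes were driven by viral promoters, and in KMF against FAK KO cells the loss of FAK cannot be told apart from the choice of 1 clone. The re-expressing lines were also virally transduced, drug-selected and enriched by flow cytometry, and no KT13 line with an empty vector was among the samples. Against FAK KO cells, the added gene therefore cannot be told apart from these steps. The study took its KMF samples at different cell passages, whereas the sources do not say whether the samples of the KT13 lines came from separate cultures, so the p-values measure the spread between these samples, which may be technical.

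Cells build cholesterol from acetyl-CoA through mevalonate, isoprenoid diphosphates, squalene and a series of sterol intermediates, and build fatty acids from the same acetyl-CoA through malonyl-CoA. Both routes are controlled by the SREBP transcription factors: SREBP-2, encoded by Srebf2, acts mainly on sterol genes and SREBP-1, encoded by Srebf1, mainly on fatty acid genes. When membranes hold enough sterol, Insig proteins keep the SREBP escort protein Scap in the endoplasmic reticulum, and the factors stay inactive there.

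Libraries held 25390558 to 35289859 fragments on genes, and 5.88 to 6.83% of fragments came from the 20 most abundant genes. Values are FPKM, fragment counts scaled for the length of the gene and the depth of the library, so levels of different genes can be set side by side. Ptk2 was at 24.3 ± 0.42 FPKM in KMF, 19.0 ± 1.45 in FAK KO, 43.4 ± 1.76 with FAK-WT, 62.4 ± 4.42 with FAK-R454 and 15.5 ± 0.40 in β-catenin ΔGSK samples (mean ± SD); whole-gene values do not separate edited from intact transcripts. Ctnnb1, the β-catenin gene, was at 214.1 ± 8.24 FPKM in β-catenin ΔGSK against 144.6 ± 4.63 in FAK KO samples. It was at 199.9 ± 6.12 FPKM in KMF, 128.55 ± 1.18 with FAK-WT and 136.2 ± 4.35 with FAK-R454. Of 7 ovarian surface and mesothelial markers, 6 were above 1 FPKM in every line, with sums of 1068 to 1250 FPKM in FAK KO, 1569 to 1809 with FAK-WT, 1257 to 1294 with FAK-R454, 1218 to 1399 in β-catenin ΔGSK and 1173 to 1203 in KMF samples. Immune markers summed to 1.10 to 12.3 FPKM and were nearly all Cd68, with Ptprc and Cd3e at or near 0, while endothelial markers summed to 1.31 FPKM at most. Single markers moved apart within these sums: in β-catenin ΔGSK against FAK KO samples, Krt8 averaged 181 against 317 FPKM and Wt1 227 against 97.8 FPKM, while Upk3b averaged 31.6 FPKM with FAK-R454 against 4.03 in FAK KO. Cd68 averaged 2.99 FPKM in FAK KO, 8.62 with FAK-WT and 1.32 in β-catenin ΔGSK samples. The part of these marker differences in the results on synthesis genes was not tested. In bulk RNA, fewer cells with a transcript and less of it per cell cannot be told apart.

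All 31 genes were expressed in every line, with line means from 2.87 FPKM (Hsd17b7 in FAK KO) to 180.1 FPKM (Fads2 in β-catenin ΔGSK). The ratio of the highest to the lowest line mean, taken after adding 0.1 FPKM to both, had a median of 1.38 over the 31 genes, against 1.47 over the 12256 genes above 1 FPKM in a line. It exceeded 2 for 3 of 31 genes (9.68%), against 22.9% of those 12256. The 3 were Fads2 (3.08), Stard4 (2.16) and Scd1 (2.11), with Hsd17b7 just under 2 (1.99). These are ratios of mean FPKM, whereas the fold changes of the comparisons average log2 values (2.02 for Hsd17b7, KMF over FAK KO). The smallest ratios were 1.15 for Insig1, 1.18 for Cyp51 and 1.19 for Acly. No line held most of the highest levels: KMF, FAK KO and β-catenin ΔGSK samples had the highest mean for 9 genes each, FAK-WT for 3 and FAK-R454 for 1. The heat map of all samples shows genes of both directions in the mevalonate, sterol and fatty acid branches. Of the regulators and transport genes, no gene was called lower than in FAK KO in any line.

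**Figure D1:**
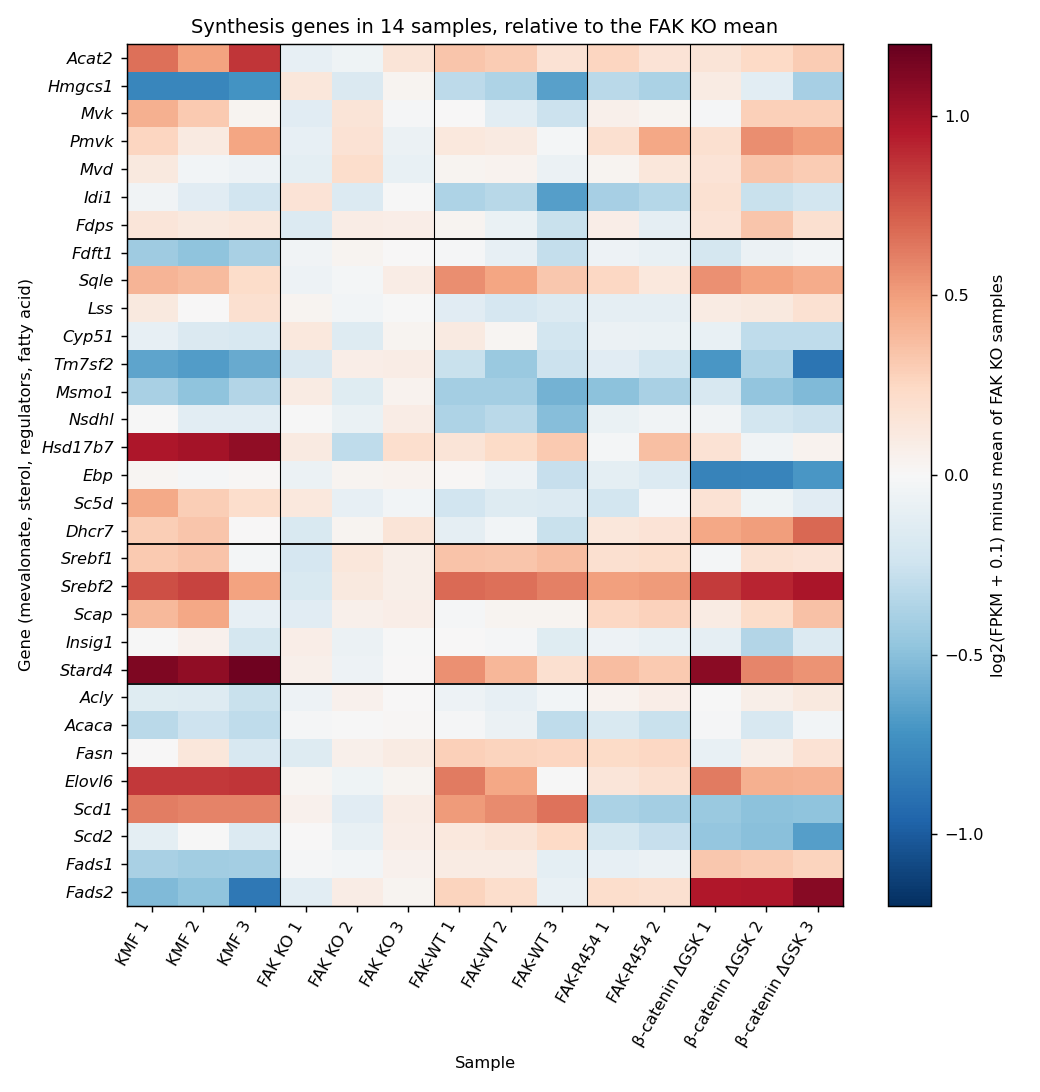
Each row is 1 of the 31 genes, grouped by branch with black lines, and each column is 1 of the 14 samples; colour gives log2(FPKM + 0.1) minus the mean of the FAK KO samples. Srebf2 and Stard4 are red in the samples of every line other than FAK KO, Msmo1 is blue in them, and Fads2 runs from blue in KMF to dark red in β-catenin ΔGSK samples.

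Promoter sequence was read for 24 of the 31 genes from RefSeq windows (build GRCm38.p6, 250 bases before to 50 after each start site, 30 windows). Windows were searched on both strands for TCACNCCAC (core of the sterol regulatory element bound by SREBPs), CACGTG (an E-box), CCAAT (the NF-Y box) and GGGCGG (the Sp1 box). TCACNCCAC was in 1 of 30 windows (3.33%) against 1.24% of all 32851 windows, CACGTG in 6 of 30 against 7.15%, CCAAT in 66.7% against 37.4% and GGGCGG in 76.7% against 35.7%. The 250 bases before the start are shown for the one gene with TCACNCCAC (Hmgcs1), for a regulator whose level separated FAK KO from all other samples (Srebf2), and for the genes with the largest positive and negative change in β-catenin ΔGSK cells (Fads2 and Ebp). They read 5′ to 3′ on the gene's strand, and capitals mark the motifs on either strand (a motif on the other strand appears as its reverse complement). The stretch of Hmgcs1 is chr13:119690101-119690350 (+), that of Srebf2 chr15:82147019-82147268 (+), that of Fads2 chr19:10101504-10101753 (-) and that of Ebp chrX:8193513-8193762 (-).
Hmgcs1: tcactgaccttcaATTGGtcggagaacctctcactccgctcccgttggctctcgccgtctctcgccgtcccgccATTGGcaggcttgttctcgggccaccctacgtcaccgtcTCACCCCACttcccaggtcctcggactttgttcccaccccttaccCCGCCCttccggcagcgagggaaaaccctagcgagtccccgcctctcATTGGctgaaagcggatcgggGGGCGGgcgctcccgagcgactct
Srebf2: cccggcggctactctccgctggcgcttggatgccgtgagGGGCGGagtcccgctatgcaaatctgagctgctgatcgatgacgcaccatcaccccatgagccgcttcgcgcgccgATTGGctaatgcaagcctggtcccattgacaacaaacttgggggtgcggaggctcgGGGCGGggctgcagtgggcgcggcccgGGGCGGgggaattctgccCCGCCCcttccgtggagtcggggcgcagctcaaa
Fads2: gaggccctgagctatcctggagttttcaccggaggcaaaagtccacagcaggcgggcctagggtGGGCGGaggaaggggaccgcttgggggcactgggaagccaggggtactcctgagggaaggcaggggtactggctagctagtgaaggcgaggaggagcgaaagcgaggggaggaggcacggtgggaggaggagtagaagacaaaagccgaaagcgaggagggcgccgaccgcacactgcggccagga
Ebp: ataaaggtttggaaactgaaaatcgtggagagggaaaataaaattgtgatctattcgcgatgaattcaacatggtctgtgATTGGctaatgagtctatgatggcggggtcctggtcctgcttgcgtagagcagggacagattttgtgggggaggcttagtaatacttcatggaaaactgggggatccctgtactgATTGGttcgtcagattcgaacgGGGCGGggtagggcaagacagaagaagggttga
The window of Hmgcs1 holds all motifs except the E-box, with TCACNCCAC starting 137 bases before the start site, whereas that of Fads2 holds a single GGGCGG 186 bases before it. A match describes letters in a window and not binding, which was not measured here.

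In the mevalonate branch, Hmgcs1 (HMG-CoA synthase, which makes the HMG-CoA that is reduced to mevalonate) had the widest range. Its level was 38.0, 38.0 and 39.9 FPKM in KMF, 71.8, 58.2 and 67.2 in FAK KO, 52.6, 50.6 and 41.5 with FAK-WT, 52.1 and 50.2 with FAK-R454, and 70.0, 60.1 and 49.7 in β-catenin ΔGSK samples. KMF samples were below all others, FAK-WT and FAK-R454 samples were below FAK KO without overlap, and β-catenin ΔGSK samples overlapped FAK KO. Acat2, the thiolase that joins acetyl-CoA units, was at 11.2, 9.89 and 12.8 FPKM in KMF and at 6.55, 6.80 and 7.83 in FAK KO samples, without overlap, and at 7.86 to 8.87 in the 3 re-expressing lines. Idi1, which isomerises isopentenyl diphosphate, was at 6.99, 5.52 and 6.20 FPKM in FAK KO, 4.78, 4.91 and 3.89 with FAK-WT, and 4.70 and 4.87 with FAK-R454 samples. The kinases Mvk and Pmvk and the decarboxylase Mvd had line means of 7.18 to 11.9 FPKM. Fdps, the farnesyl diphosphate synthase, was with Hmgcs1 among the more abundant genes of the branch, with means of 53.7 FPKM in FAK-WT to 67.7 in β-catenin ΔGSK samples.

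In the sterol branch, Msmo1 (a methylsterol oxidase) was at 18.5, 15.6 and 17.8 FPKM in FAK KO samples. It was at 13.1, 12.3 and 13.5 FPKM in KMF, 13.0, 13.0 and 11.6 with FAK-WT, 12.2 and 13.1 with FAK-R454, and 15.02, 12.4 and 11.9 in β-catenin ΔGSK samples, so that every FAK KO sample was above every other sample. Sqle, the squalene epoxidase, was at 26.5, 27.3 and 29.5 FPKM in FAK KO samples, 36.9, 36.1 and 32.3 in KMF, 41.0, 38.6 and 34.8 with FAK-WT, 33.0 and 30.4 with FAK-R454, and 40.5, 38.8 and 37.7 in β-catenin ΔGSK samples. Here every FAK KO sample was below every other sample. Ebp, a sterol isomerase, separated 1 line: it was at 15.7, 15.8 and 16.9 FPKM in β-catenin ΔGSK samples and between 22.6 and 28.1 in the other 11. Dhcr7, a sterol reductase of the last steps, was at 17.8, 18.1 and 20.8 FPKM in β-catenin ΔGSK and at 10.6 to 16.2 in the other samples. Hsd17b7, a sterol ketoreductase, was at 5.66, 5.77 and 6.07 FPKM in KMF and at 2.29 to 3.69 in the samples of the 4 KT13 lines, without overlap. Tm7sf2, a sterol reductase, was at 8.27, 9.86 and 9.94 FPKM in FAK KO, 5.996, 5.81 and 6.11 in KMF, and 5.72, 7.18 and 5.04 in β-catenin ΔGSK samples. The other 5 genes (Fdft1, Lss, Cyp51, Nsdhl and Sc5d) had ratios of highest to lowest line mean of 1.18 to 1.43.

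**Figure D2:**
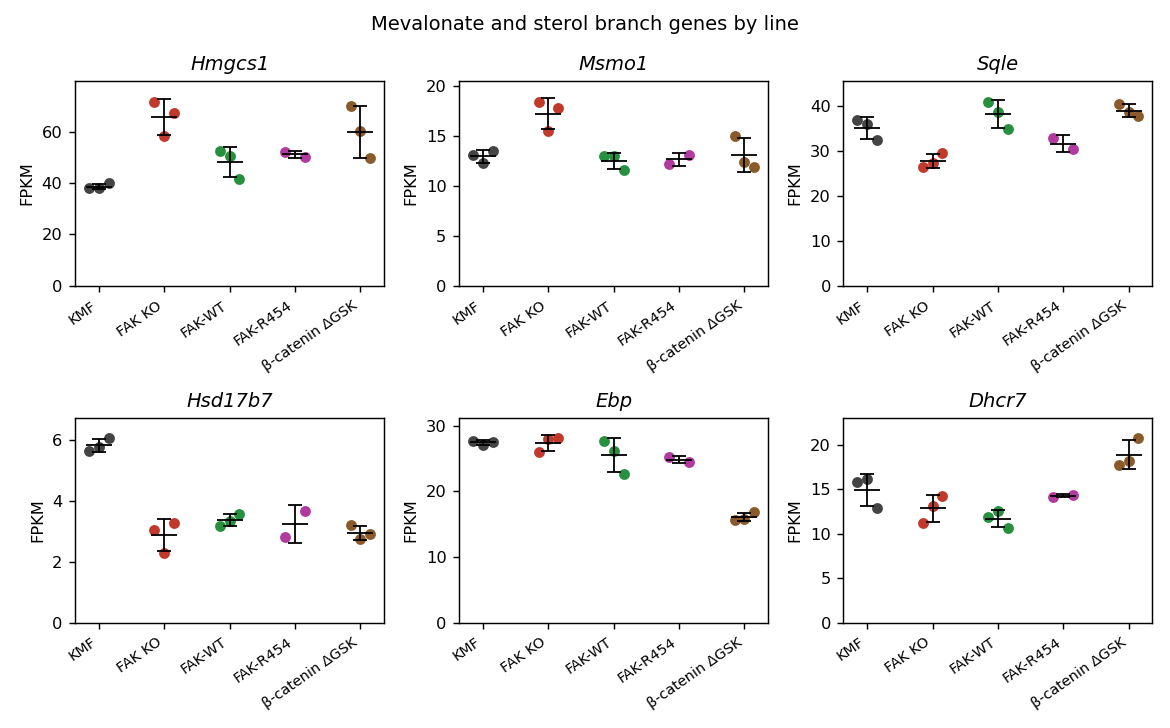
FPKM (vertical axis, from 0) of 6 mevalonate and sterol branch genes in each sample (points) of the 5 lines, with the mean and SD (black). Hmgcs1 is lowest in KMF, Msmo1 is highest and Sqle lowest in FAK KO, Hsd17b7 is highest in KMF, and β-catenin ΔGSK samples are lowest for Ebp and highest for Dhcr7.

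Among the regulators, Srebf2 was at 52.0, 64.3 and 62.0 FPKM in FAK KO samples. It was at 101.3, 104.1 and 82.6 FPKM in KMF, 94.8, 93.9 and 90.3 with FAK-WT, 83.1 and 84.6 with FAK-R454, and 106.0, 111.4 and 116.8 in β-catenin ΔGSK samples. All FAK KO samples were thus below all samples of the other lines, and β-catenin ΔGSK samples were above the rest. Srebf1 spread less, with means of 48.9 ± 5.78 FPKM in FAK KO, 56.6 ± 7.75 in KMF, 62.1 ± 0.79 with FAK-WT, 56.0 ± 0.60 with FAK-R454 and 52.5 ± 3.97 in β-catenin ΔGSK samples, and its FAK KO samples overlapped those of KMF and β-catenin ΔGSK. Scap and Insig1, which set whether SREBPs leave the endoplasmic reticulum, had line means of 27.8 to 33.5 and 25.6 to 29.6 FPKM. Stard4, a cytosolic sterol carrier, was at 3.28, 3.00 and 3.15 FPKM in FAK KO, 6.93, 6.67 and 7.16 in KMF, 4.63, 4.17 and 3.61 with FAK-WT, 4.09 and 3.92 with FAK-R454, and 6.79, 4.77 and 4.63 in β-catenin ΔGSK samples. FAK KO samples were again below all others, and sample 1 of β-catenin ΔGSK stood above the other two of its line.

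Fads2 and Scd1, both desaturases, had the widest ranges of the fatty acid branch. Scd1, which places a double bond in palmitoyl- and stearoyl-CoA, was at 36.6, 32.0 and 37.4 FPKM in FAK KO, 54.2, 53.3 and 53.3 in KMF, and 50.4, 52.1 and 55.4 with FAK-WT samples. It was at 27.1 and 26.5 FPKM in FAK-R454 and at 25.9, 25.0 and 25.3 in β-catenin ΔGSK samples. Scd1 levels therefore lay in 3 ranges without overlap, with KMF and FAK-WT samples highest, FAK KO samples between, and FAK-R454 and β-catenin ΔGSK samples lowest. Scd2, its neighbour and paralogue, was more abundant, at 133.4, 125.7 and 141.3 FPKM in FAK KO, 122.5, 132.7 and 119.2 in KMF, 145.6, 148.1 and 157.8 with FAK-WT, 115.4 and 110.2 with FAK-R454, and 96.4, 94.2 and 84.2 in β-catenin ΔGSK samples. The order of the KT13 lines for Scd2 was that of Scd1, whereas KMF samples overlapped FAK KO. Scd1 (chr19:44394451-44407709) and Scd2 (chr19:44293676-44306864) are close in sequence, and reads shared between them could be split by the counting.

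Fads2, the delta-6 desaturase of polyunsaturated fatty acid synthesis (chr19:10064164-10101503), had another order. It was at 61.8, 64.0 and 49.4 FPKM in KMF, 82.2, 95.3 and 91.9 in FAK KO, 107.8, 104.0 and 84.4 with FAK-WT, 103.8 and 102.2 with FAK-R454, and 174.5, 175.1 and 190.7 in β-catenin ΔGSK samples. KMF samples were below and β-catenin ΔGSK samples above all others, without overlap. Fads1, the delta-5 desaturase next to it, had the same lowest and highest lines, at 65.4 ± 0.58 FPKM in KMF and 106.5 ± 1.93 in β-catenin ΔGSK samples, with 81.7 to 88.3 in the other line means. Elovl6, which elongates palmitoyl-CoA, was at 7.46, 7.44 and 7.49 FPKM in KMF, 4.16, 3.94 and 4.19 in FAK KO, 6.36, 5.69 and 4.09 with FAK-WT, 4.55 and 4.68 with FAK-R454, and 6.34, 5.54 and 5.50 in β-catenin ΔGSK samples. The core enzymes Acly (ATP citrate lyase), Acaca (acetyl-CoA carboxylase) and Fasn (fatty acid synthase) moved least, with ratios of highest to lowest line mean of 1.19, 1.22 and 1.22.

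**Figure D3:**
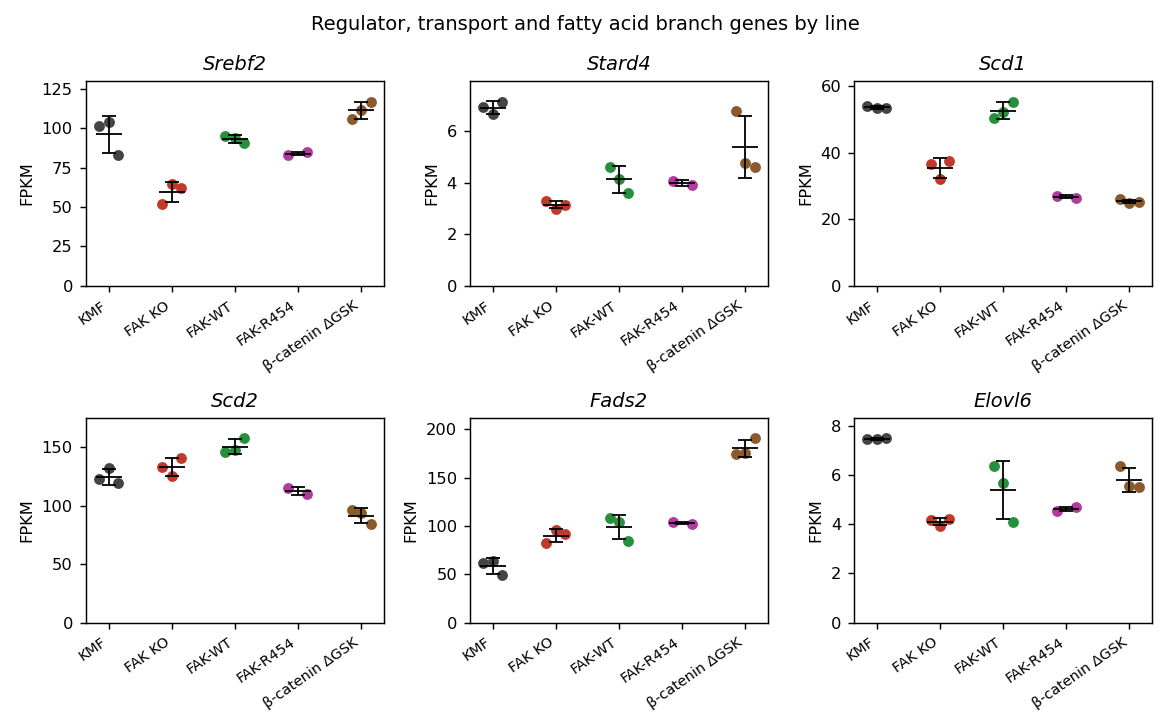
FPKM (vertical axis, from 0) of 2 regulator or transport genes and 4 fatty acid genes in each sample (points) of the 5 lines, with the mean and SD (black). FAK KO samples are lowest for Srebf2 and Stard4, FAK-R454 and β-catenin ΔGSK samples are lowest for Scd1, and β-catenin ΔGSK samples are highest for Fads2.

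The ratio of Fads2 to Scd1 within a sample, which library scaling does not change and which was chosen after the values were seen, was 1.09 ± 0.14 in KMF, 1.89 ± 0.32 with FAK-WT, 2.56 ± 0.38 in FAK KO, 3.85 ± 0.02 with FAK-R454 and 7.10 ± 0.42 in β-catenin ΔGSK samples (mean ± SD). Its sample values did not overlap between lines. Srebf2 to Srebf1 ran from 1.22 ± 0.01 in FAK KO through 1.498 in both FAK-WT (± 0.06) and FAK-R454 samples and 1.70 ± 0.03 in KMF to 2.12 ± 0.10 in β-catenin ΔGSK samples. The FAK-WT and FAK-R454 values of this ratio overlapped, and no test was made of either ratio.

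**Figure D4:**
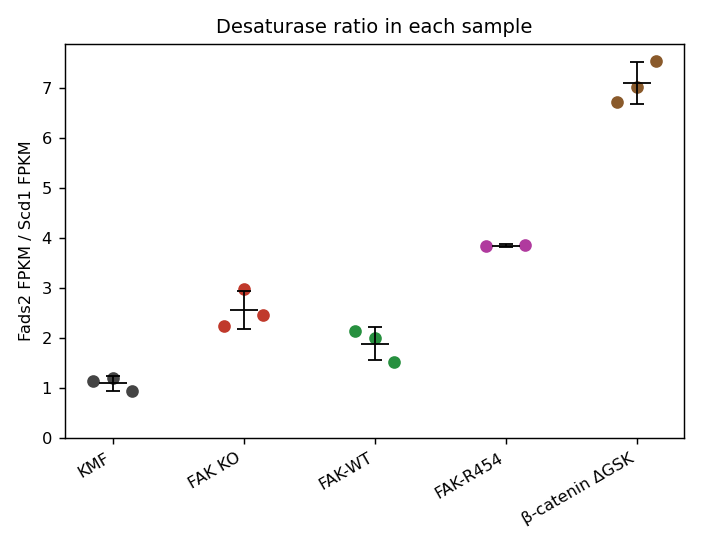
Fads2 FPKM divided by Scd1 FPKM (vertical axis, from 0) in each sample (points), with the mean and SD of each line (black). The 3 β-catenin ΔGSK samples lie between 6.73 and 7.55 and the 3 KMF samples between 0.93 and 1.2.

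FAK-WT cells were set against FAK KO cells of the same clone, where restored FAK cannot be told apart from viral transduction and selection. Srebf2 rose by 0.65 ± 0.08 (log2 fold change ± SE, 1.57-fold, adjusted p = 9.26e-04) and Scd1 by 0.58 ± 0.08 (1.49-fold, adjusted p = 0.00103). Sqle rose by 0.46, Stard4 by 0.38, Srebf1 by 0.35, and Fasn and Acat2 by 0.27 each. The mevalonate and sterol enzymes Msmo1 (-0.46 ± 0.09, adjusted p = 0.00446), Idi1 (-0.45), Hmgcs1 (-0.45), Nsdhl (-0.40), a sterol dehydrogenase, and Tm7sf2 (-0.32) fell. Thus 7 of 31 genes were higher (22.6%, against 15.6% of the 11841 genes tested) and 5 were lower (16.1%, against 25.2%), by limma with Benjamini-Hochberg adjustment at 0.05. By branch, 1 of 7 mevalonate genes was higher and 2 lower, 1 of 11 sterol genes higher and 3 lower, 3 of 5 regulators and transport genes higher, and 2 of 8 fatty acid genes higher. The median log2 fold change was -0.03 over the 31 genes and -0.08 over all genes. As the largest change was 0.65, no gene reached 2-fold at any p, against 4.62% of all genes. Srebf2, Scd1, Srebf1 and Msmo1 were called under every alternative that set no minimum fold. Acat2, Hmgcs1, Idi1, Stard4, Tm7sf2 and Fasn lost the call without 1 sample (any FAK KO sample or FAK-WT sample 1 or 2, adjusted p from 0.0506 to 0.124). Calls of Sqle, Idi1, Acat2 and Tm7sf2 were lost with chromosome centring (7 higher, 3 lower), those of Hmgcs1, Idi1, Nsdhl and Fasn with correction for GC content and length (10 higher, 3 lower), and Tm7sf2 with median-of-ratios scaling (9 higher, 4 lower). Srebf2 was smaller with chromosome centring (0.35), and Msmo1 (-0.20) and Srebf1 (0.15) with correction for GC content and length.

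In FAK-R454 against FAK KO cells, where the added FAK lacks kinase activity, Srebf2 rose by 0.50 ± 0.09 (1.42-fold, adjusted p = 0.00875) and Stard4 by 0.34 ± 0.10 (adjusted p = 0.0484). Msmo1 fell by 0.44, Hmgcs1 by 0.36, Scd1 by 0.40 ± 0.08 (adjusted p = 0.0134) and Scd2 by 0.24 on the log2 scale. The 2 higher genes were 6.45% of the 31, against 9.78% of the 11818 genes tested, and the 4 lower genes 12.9%, against 9.89% (limma). The higher genes were both regulators or transport genes, and the lower ones were 1 mevalonate, 1 sterol and 2 fatty acid genes. The largest change was 0.50, so none reached 2-fold at any p, against 2.74% of all genes. The median was -0.01, against -0.03 over all genes. Every call was lost without either FAK-R454 sample, the remaining sample being assumed to vary like the other line. With any 1 sample left out, Srebf2 was at 0.41 to 0.56, Stard4 at 0.31 to 0.37 and Msmo1 at -0.51 to -0.39. Hmgcs1 was then at -0.44 to -0.29, Scd1 at -0.47 to -0.35 and Scd2 at -0.28 to -0.20. All calls but that of Srebf2 were lost without FAK KO sample 3 (limma, adjusted p from 0.0545 to 0.167), while 7 genes were higher without FAK KO sample 2. The split was 3 higher and 3 lower with median-of-ratios scaling and 5 and 5 with correction for GC content and length. At their smallest over the alternatives, Hmgcs1 was at -0.17 and Msmo1 at -0.27.

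FAK-WT and FAK-R454 cells differ in the kinase activity of the added FAK. They are also separate lines with Ptk2 at 43.4 and 62.4 FPKM, and these differences cannot be told apart here. Of the 31 genes, the 2 lines differed most in Scd1, which was 1.96-fold higher in FAK-WT cells (log2 0.97 ± 0.06, limma, adjusted p = 0.00195). Scd2 was 1.33-fold higher (0.42 ± 0.06, adjusted p = 0.016), and Scap, the SREBP escort, was lower (-0.25 ± 0.05, adjusted p = 0.0332). These are 2 of 31 genes higher (6.45%, against 3.38% of 11782 genes) and 1 lower (3.23%, against 4.44%), and none passed 2-fold, the largest change being 0.97, against 1.44% of all genes (limma). Srebf2, Srebf1, Insig1 and Stard4 (0.02 to 0.15), Fads2 (-0.07, adjusted p = 0.712) and the 18 mevalonate and sterol genes did not pass the test between these lines. The calls were lost without either FAK-R454 sample, which leaves 1 in that line. With any 1 sample left out, Scd1 was at 0.93 to 1.00, Scd2 at 0.38 to 0.45 and Scap at -0.26 to -0.23. Scap also lost its call without FAK-WT sample 1 or 2, with 1 fit over all lines and with no trend. The same held with chromosome centring (3 higher: Scd1, Scd2 and Srebf1) and with median-of-ratios scaling (3 higher: Scd1, Scd2 and Srebf2). Scd2 also lost its call without FAK-WT sample 2. Without FAK-WT sample 3, 8 genes were higher and 4 lower, the gained ones being Sqle, Cyp51, Nsdhl, Dhcr7, Srebf1, Srebf2, Acly, Elovl6 and Fads1. Nsdhl was at -0.34 with all samples (limma, adjusted p = 0.0508) and was called in 5 of 15 alternatives. Without FAK-WT sample 1 Scd1 passed 2-fold.

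With active β-catenin added to FAK KO cells, Fads2 changed most of the 31 genes and rose 2.01-fold (log2 1.01 ± 0.07, adjusted p = 8.19e-06). Srebf2 rose by 0.91 ± 0.09 (1.88-fold, adjusted p = 4.12e-05), Stard4 by 0.74, Dhcr7 by 0.55, Sqle and Elovl6 by 0.49 each, Pmvk by 0.42, Fads1 by 0.30 and Fdps by 0.23. Ebp fell (-0.76 ± 0.07, adjusted p = 2.65e-05), as did Tm7sf2 (-0.65), Scd2 (-0.54 ± 0.07), Scd1 (-0.47 ± 0.08) and Msmo1 (-0.40). Fads1 and Fads2 thus rose while Scd1 and Scd2 fell. In all, 9 of 31 genes were higher (29.0%, against 23.7% of 11915) and 5 lower (16.1%, against 34.4%), and 1 passed 2-fold (3.23%, against 12.1%), by limma. The median was 0.06, against -0.09 over all genes. By branch, 2 of 7 mevalonate genes were higher, 2 of 11 sterol genes higher and 3 lower, 2 of 5 regulators and transport genes higher, and 3 of 8 fatty acid genes higher and 2 lower. Of these calls, 12 held under every alternative that set no minimum fold, among them Ebp, at -0.54 at its smallest. Pmvk and Fdps were lost without FAK KO sample 1 or 3 or β-catenin ΔGSK sample 2 or 3 (adjusted p from 0.0507 to 0.161). Without β-catenin ΔGSK sample 1, 8 genes were lower, and Fads2 was just under 2-fold without FAK KO sample 1 or β-catenin ΔGSK sample 3. With correction for GC content and length the counts were 16 higher and 6 lower and Msmo1 was at -0.18, and with chromosome centring the counts were 14 and 5 and Stard4 was at 1.23.

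Against FAK-WT cells, β-catenin ΔGSK cells had lower Scd1 (2.07-fold lower, log2 -1.05 ± 0.06, adjusted p = 4.19e-06), Scd2 (-0.72), Ebp (-0.65), Srebf1 (-0.24) and Fasn (-0.22). Fads2 was higher (0.87 ± 0.10, adjusted p = 0.00015), with Dhcr7 (0.69), Pmvk (0.35), Fdps (0.34), Mvk (0.31), Lss (0.30), which closes the sterol ring, Fads1 (0.27), Mvd (0.26) and Srebf2 (0.26). These 9 higher genes were 29.0% of 31, against 24.4% of 11873 tested, the 5 lower 16.1%, against 26.4%, and the 1 past 2-fold 3.23%, against 11.6% (limma). Of the higher genes 4 were among the 7 mevalonate genes, whose median was 0.31, against -0.01 over all genes. All 4 (Mvk, Pmvk, Mvd and Fdps) were lost without β-catenin ΔGSK sample 2, and Mvk, Pmvk and Mvd also without FAK-WT sample 2 or 3 or β-catenin ΔGSK sample 3. Of the other branches, 2 of 11 sterol genes were higher and 1 lower, 1 of 5 regulators and transport genes higher and 1 lower, and 2 of 8 fatty acid genes higher and 3 lower. Ebp, Dhcr7, Srebf2, Scd1, Scd2 and Fads2 were called under every alternative that set no minimum fold, with Srebf2 at 0.63 under chromosome centring. Each sample left out took 1 to 7 of the other 8 calls (adjusted p from 0.0501 to 0.133). There were 3 genes higher without β-catenin ΔGSK sample 2, 5 higher without FAK-WT sample 2, and 3 lower without FAK-WT sample 1 or 2. Correction for GC content and length took no call and added 9.

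**Figure D5:**
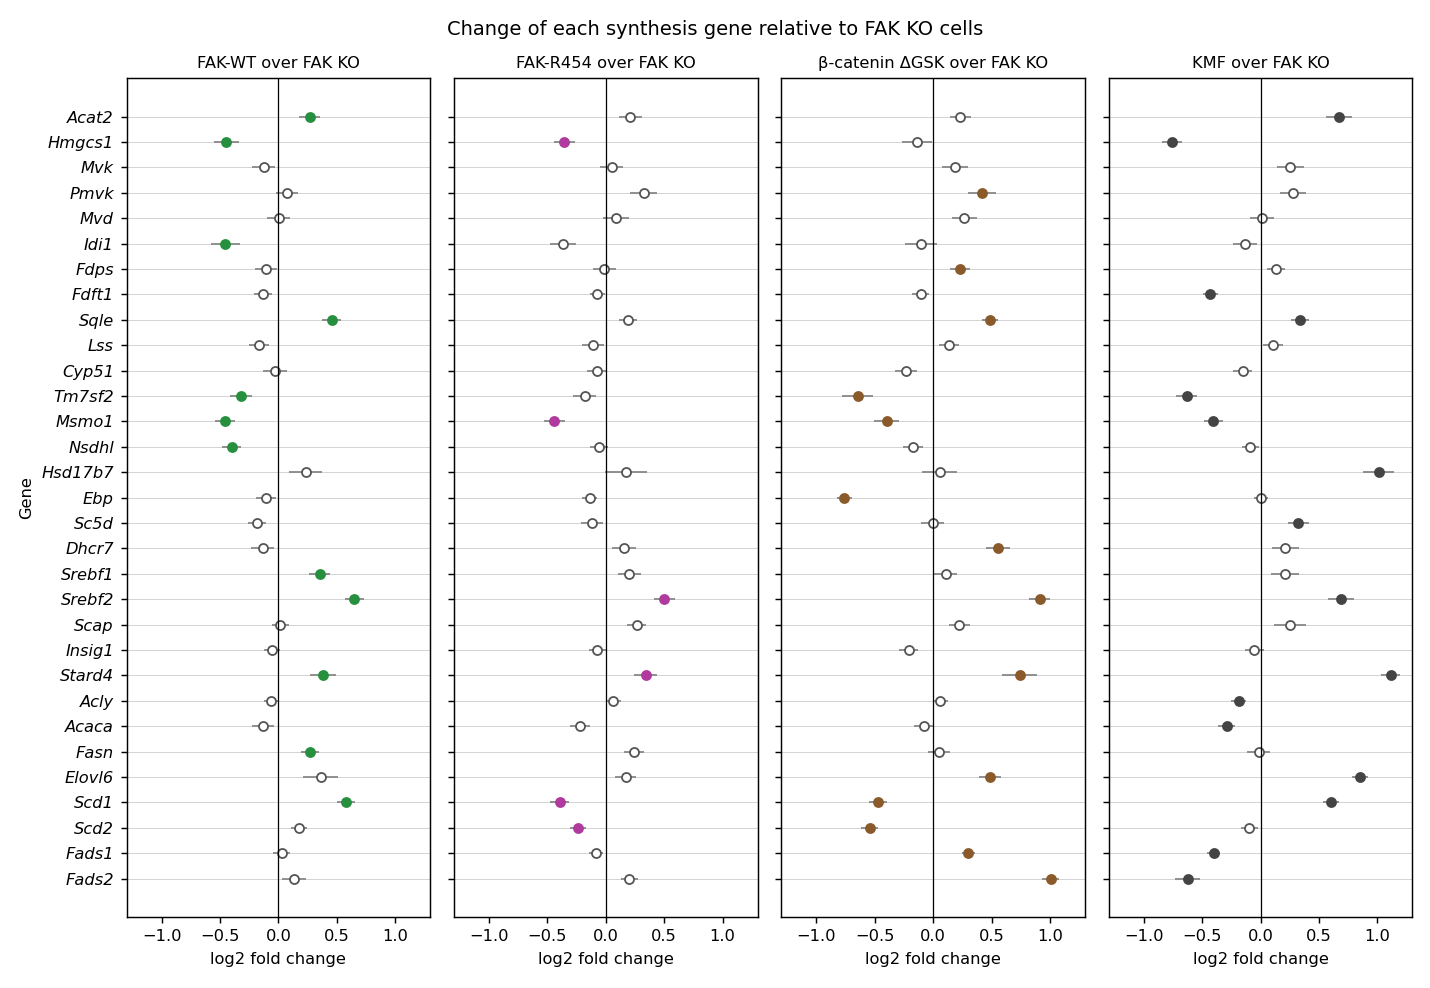
Log2 fold change over FAK KO cells (horizontal axis) of each of the 31 genes in FAK-WT, FAK-R454, β-catenin ΔGSK and KMF cells, with SE bars; filled points passed an adjusted p of 0.05 (limma) and open points did not. The 4 panels share the FAK KO samples. Srebf2 and Stard4 are filled to the right and Msmo1 to the left in each panel, whereas Scd1 is right in FAK-WT and KMF and left in the other panels.

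Parental KMF cells against FAK KO cells gave Stard4 2.16-fold higher (log2 1.11 ± 0.08, adjusted p = 1.2e-05), Hsd17b7 2.02-fold higher (1.01 ± 0.13, adjusted p = 3.49e-04) and Elovl6 1.803-fold higher (0.85 ± 0.07, adjusted p = 3.1e-05). Srebf2 (0.69), Acat2 (0.67), Scd1 (0.60), Sqle (0.34) and Sc5d (0.32), a sterol desaturase, were also higher. Hmgcs1 (-0.76 ± 0.08, adjusted p = 1.24e-04), Tm7sf2 (-0.63), Fads2 (-0.63), Fdft1 (-0.43), the squalene synthase, Msmo1 (-0.41), Fads1 (-0.40), Acaca (-0.29) and Acly (-0.19) were lower. The 8 genes higher (25.8%, against 23.1% of 11893) and 8 lower (25.8%, against 28.7%) had shares near those of all genes, and 2 passed 2-fold (6.45%, against 8.01%), by limma. The median was 0.01, against -0.05. At their smallest over the alternatives, Hsd17b7 was at 0.81, Elovl6 at 0.61 and Acat2 at 0.46, all still called. Acly lost its call without FAK KO sample 2 or 3 or any KMF sample and Sc5d without FAK KO sample 3 or KMF sample 1 (adjusted p from 0.0555 to 0.108), the 2-fold count was 1 without FAK KO sample 2 or KMF sample 3, and chromosome centring took the calls of Acly, Acaca, Fads1 and Sc5d (8 higher, 5 lower).

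FAK-WT cells also differed from KMF cells, although both have FAK: 7 genes were higher (22.6%, against 18.2% of 11847) and 11 lower (35.5%, against 23.5%), none past 2-fold with a largest change of 0.78 in size, against 5.93% of all genes (limma). Hsd17b7 (-0.78 ± 0.07, adjusted p = 2.84e-04), Stard4 (-0.74), Sc5d (-0.51), Elovl6 (-0.49), Acat2 (-0.40), Mvk (-0.38), Dhcr7 (-0.35), Idi1 (-0.32), Nsdhl (-0.31), Lss (-0.27) and Fdps (-0.24) were lower. Fads2 (0.76 ± 0.13, adjusted p = 0.00306), Fads1 (0.43), Hmgcs1 and Tm7sf2 (0.31 each), Fdft1 (0.30), Fasn (0.29) and Scd2 (0.27) were higher. Scd1 and Srebf2, both higher in FAK-WT and in KMF than in FAK KO cells, were at -0.03 and -0.04 between FAK-WT and KMF cells and not called, but both were called lower in FAK-WT with chromosome centring (-0.31 and -0.30), and Srebf2 also without KMF sample 3 (-0.14). Hsd17b7, Stard4, Sc5d and Fads2 held under every alternative. Leaving out KMF sample 1 took 12 of the 18 calls (3 higher and 3 lower), FAK-WT sample 2 took 8, KMF sample 2 took 7, FAK-WT sample 1 took 6, KMF sample 3 took 4 and FAK-WT sample 3 took 3 (adjusted p from 0.0506 to 0.14), and with chromosome centring 2 genes were higher and 10 lower. Centring took the calls of 5 of the 7 higher genes, with Hmgcs1 at 0.27, Fasn at 0.22, Fads1 at 0.15, Tm7sf2 at 0.03 and Scd2 at -0.01 (adjusted p from 0.0701 to 0.898), and of Elovl6, Lss and Fdps among the lower ones. It left Hsd17b7 at -0.45 and Fads2 at 0.48. With no filter on low values 5 genes were lower, and the calls of Mvk, Idi1, Fdps, Lss, Dhcr7 and Elovl6 were lost.

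Several of the 31 genes lie on chromosomes whose genes shifted together. On chromosome 15, which carries Srebf2 and Sqle, the median log2 fold change of all genes stood 0.39 above that of the other chromosomes in FAK-WT over FAK KO, 0.18 with FAK-R454, 0.10 in β-catenin ΔGSK and 0.11 in KMF over FAK KO. With each chromosome centred on its own median, Srebf2 was still called, at 0.35, 0.34, 0.96 and 0.63 in that order, and Sqle was at 0.16 (adjusted p = 0.137) in FAK-WT but 0.54 in β-catenin ΔGSK and 0.27 among KMF cells, both called. On chromosome 19, with Scd1, Scd2, Fads1, Fads2 and Tm7sf2, the shift was 0.15 with FAK-WT and -0.23 in KMF over FAK KO, and 0.33 with FAK-WT over KMF. Centred, Scd1 was at 0.56 with FAK-WT, -0.36 with FAK-R454, -0.37 in β-catenin ΔGSK and 0.85 in KMF over FAK KO, all called, and Fads2 at 1.11 in β-catenin ΔGSK cells and -0.37 in KMF, both called. Other calls on chromosome 19 were lost on centring: Fads1 in KMF over FAK KO went from -0.40 to -0.15 (adjusted p = 0.056), Tm7sf2 in FAK-WT over FAK KO was at -0.33 (adjusted p = 0.0539), Scd2 in FAK-R454 over FAK KO was at -0.20 (adjusted p = 0.0893), and Fads1, Tm7sf2 and Scd2 in FAK-WT over KMF were at 0.15, 0.03 and -0.01. Tm7sf2 in KMF over FAK KO went from -0.63 to -0.38 and was still called. In KMF over FAK KO, chromosomes 1 (Hsd17b7), 3 (Elovl6) and 17 (Acat2) also stood 0.25, 0.27 and 0.27 above the others. The part of the chromosome shifts in these results was not tested. Stard4 lies on a chromosome whose median was 0.29 lower in FAK-WT over FAK KO, and its centred value there was 0.69. Ebp lies on chromosome X, whose shift in β-catenin ΔGSK over FAK KO was -0.21.

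Neighbouring transcripts bear on a few values, since the library kit does not mark strand. Exons of Fdps share 1124 bases with Gm43738 on the same strand (26.7% of its exon bases), which has no row in the table. Exons of Fdft1 share 774 bases with Ctsb on the other strand (18.3%), those of Scap 985 bases with 5830462I19Rik on the other strand (13.2%), those of Hmgcs1 557 bases with Gm48342 on the other strand (12.1%), and those of Tm7sf2 share 532 bases with Vps51 on the same strand (12.1%). Reads from such stretches cannot be assigned to 1 gene with certainty.

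Outside the 31 genes, 53 further lipid genes were read as a background of related pathways. In FAK-WT over FAK KO 6 of 50 tested were higher (12.0%, against 15.6% of all genes) and 20 lower (40.0%, against 25.2%). In FAK-R454 over FAK KO 12 of 50 were lower (24.0%, against 9.89%) and the other 38 were not called. In β-catenin ΔGSK over FAK KO 13 of 49 were higher (26.5%, against 23.7%) and 19 lower (38.8%, against 34.4%), and in KMF over FAK KO 9 of 50 were higher (18.0%, against 23.1%) and 23 lower (46.0%, against 28.7%). Those past 2-fold in FAK-WT (6%, against 4.62% of all genes) were Mlxipl (-1.49), a carbohydrate-responsive lipogenic factor, Me1 (-1.12), the malic enzyme that supplies NADPH for synthesis, and Thrsp (1.03). Mlxipl (-1.33) was the one past 2-fold in FAK-R454 cells (2%, against 2.74%). In β-catenin ΔGSK cells (8.16%, against 12.1%) they were Abca1 (-2.80), the cholesterol efflux pump, Dgat2 (-1.79), which completes triglycerides, Acss2 (-1.22), which makes acetyl-CoA from acetate, and Stard3 (-1.22), a late endosomal sterol transporter. In KMF cells (14%, against 8.01%) they were Dgat2 (-1.73), Nr1h3 (-1.59), which encodes the sterol sensor LXRα, Lpl (-1.35), Mlxipl (-1.28), Cyp27a1 (1.18), Abca1 (-1.04) and Thrsp (1.03). Between FAK-WT and FAK-R454 cells 3 were higher (6%, against 3.38%) and 2 lower (4%, against 4.44%), by limma, with a largest change of 0.73. In FAK-WT over KMF 10 of 50 were higher (20%, against 18.2%) and 7 lower (14%, against 23.5%), and 3 passed 2-fold (6%, against 5.93%): Dgat2 (1.70), Cyp27a1 (-1.61) and Lpl (1.12). In β-catenin ΔGSK over FAK-WT 17 of 50 were higher (34.0%, against 24.4%) and 14 lower (28.0%, against 26.4%). The 8 past 2-fold there (16%, against 11.6%) were Abca1 (-2.69), Thrsp (-2.65), Mlxipl (2.07), Dgat2 (-1.76), Soat1 (1.40), which esterifies cholesterol, Cyp27a1 (1.39), Tmem97 (1.08) and Hacd2 (-1.004), an enzyme of fatty acid elongation. Some of these further genes averaged near or below 1 FPKM in a line. Dgat2 was at 0.82 FPKM in KMF, 0.78 in β-catenin ΔGSK and 2.95 in FAK KO samples. Abca1 was at 0.40 FPKM in β-catenin ΔGSK and 3.41 in FAK KO, and Nr1h3 at 0.998 in KMF and 3.19 in FAK KO. Thrsp was at 0.25 FPKM in β-catenin ΔGSK, 0.94 in FAK KO, 2.02 in KMF and 2.04 with FAK-WT.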

How the data were processed

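Poly(A) RNA of 14 samples was sequenced in paired ends on an Illumina platform. The authors deposited 1 table of FPKM values per gene and sample. The study's methods name TopHat2 for mapping, whereas the submitters' processing notes name CASAVA 1.8, STAR 2.5, DESeq2 and mm10, so the aligner is not settled. Whole fragments recovered from FPKM and gene length were whole within 0.01 for 100% of values, at a median of 28720224 fragments per library.

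Lines were compared in pairs (7 comparisons) with limma 3.58.1 in R 4.3.3 on log2(FPKM + 0.1), with an intensity trend, over genes with a mean above 1 FPKM in either line. Benjamini-Hochberg adjustment was over all genes tested, and calls needed an adjusted p under 0.05, with 2-fold counts given apart. Fold changes are on the log2(FPKM + 0.1) scale, which understates those of low genes. The fits were tested on simulated data. Alternatives were a pseudocount of 1, no filter or a filter of 5 FPKM, median-of-ratios scaling, no trend, 1 fit over all lines, the replicate number as a block, limma-voom on the recovered fragments, chromosome centring, each sample left out in turn, a log2 minimum of 0.5 and, chosen after seeing the data, a correction for GC content and length. The log2 minimum of 0.5 only took the place of the 2-fold minimum, and calls said to hold under every alternative leave it out. The members and lists were chosen with earlier results of these data known. Every member is named, and further lipid genes only where they passed 2-fold. Exons were taken from GENCODE vM21. The methods describe 1 more FAK-R454 sample, which was not analysed here.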

Additional observations from a re-analysis of the deposited data

Results flagged for a closer look

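The effect over FAK KO cells differed between FAK-WT and FAK-R454 cells for 3 of the 31 genes in the direct limma test of the lines, 2 higher and 1 lower, against 3.38% higher and 4.44% lower of 11782 genes. The difference in log2 fold change (FAK-WT minus FAK-R454) was 0.97 for Scd1, 0.42 for Scd2 and -0.25 for Scap. Scd1 was above every FAK KO sample in all 3 FAK-WT samples and below every FAK KO sample in both FAK-R454 samples. The calls were lost without either FAK-R454 sample, which leaves 1 in that line. With any 1 sample left out, the difference was 0.93 to 1.00 for Scd1, 0.38 to 0.45 for Scd2 and -0.26 to -0.23 for Scap.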

How the results depend on the processing

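Over all alternatives that set no minimum fold, 3065 of 3393 values of single genes stayed on their side of the threshold. Of the rest, 194 lost and 128 gained a call, and 6 that were called in at least 1 of the fits changed sign. Another 139, called in neither, also changed sign. Of 83 calls, 38 held under every one of these alternatives. The causes were not tested. The changes of sign that involved a call came with GC and length correction for Insig1 in FAK-WT over FAK KO (0.12) and for Idi1 (0.28), Sc5d (0.25) and Fasn (-0.12) in β-catenin ΔGSK over FAK KO, and with chromosome centring for Fdps (0.11) and Scd2 (-0.012) in FAK-WT over KMF. With FAK-R454 at 2 samples, leaving 1 out limits every comparison that uses it.

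Same-numbered samples did not match throughout, and whether β-catenin ΔGSK and FAK KO samples were paired by number is not settled. In every comparison the correlation of same-numbered deviations was at or below 0.1 in at least 1 pair (from -0.272 to 0.481). Own numbers were the best match for 5 of 6 samples in β-catenin ΔGSK over FAK KO, whose pairs correlated at 0.481, 0.321 and 0.097. They were the best match for 0 to 4 of 6 in the other comparisons without FAK-R454. With the replicate block, β-catenin ΔGSK over FAK KO lost no call, gained 6, and had 13 higher and 7 lower genes. FAK-R454 over FAK KO then had 1 higher gene, and FAK-WT over FAK-R454 had 8 higher and 4 lower. FAK-R454 has no sample 3, and leaving out FAK-WT sample 3 without a block also gave 8 higher and 4 lower. These last counts therefore cannot be put down to the block alone.

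In FAK-WT over FAK KO (7 higher, 5 lower), chromosome centring and GC and length correction each gave 3 lower, a log2 threshold of 0.5 gave 2 in place of the 0 at 2-fold, and single samples left out gave 4 to 9 higher and 2 to 5 lower. In FAK-R454 over FAK KO (2 higher, 4 lower), the count of higher genes was 1 with no filter, above 5 FPKM and in 1 fit over all lines and 5 with GC and length correction, that of lower genes was 2 with no filter and with no trend, the 0.5 threshold gave 1, and samples left out gave 0 to 7 higher and 0 to 5 lower. In β-catenin ΔGSK over FAK KO (9 higher, 5 lower, 1 at 2-fold), chromosome centring gave 14 higher and 2 at 2-fold, GC and length correction 16 higher, a pseudocount of 1 gave 0 at 2-fold, the 0.5 threshold gave 7, and samples left out gave 5 to 8 lower and 0 to 1 at 2-fold. In KMF over FAK KO (8 lower, 2 at 2-fold), chromosome centring gave 5 lower and 1 at 2-fold, a pseudocount of 1 gave 0, the 0.5 threshold gave 9, and samples left out gave 1 to 2.

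In FAK-WT over FAK-R454 (2 higher, 1 lower, 0 at 2-fold), the lower count was 2 with a pseudocount of 1 and with limma-voom. It was 0 with median-of-ratios scaling, no trend and chromosome centring. In this comparison 1 gene passed 2-fold with median-of-ratios scaling or GC and length correction, and the 0.5 threshold gave 1. FAK-WT samples left out gave 1 to 8 higher, 0 to 4 lower and 0 to 1 at 2-fold. In FAK-WT over KMF (7 higher, 11 lower), chromosome centring gave 2 higher, no filter 5 lower, the 0.5 threshold gave 4, and samples left out gave 3 to 9 higher and 3 to 9 lower. In β-catenin ΔGSK over FAK-WT (9 higher, 5 lower, 1 at 2-fold), GC and length correction gave 16 higher and 2 at 2-fold, chromosome centring 0 at 2-fold, the 0.5 threshold 5, and samples left out gave 3 to 11 higher and 3 to 5 lower.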
